A study of Homo sapiens with 9 samples.

Results

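The 38 genes described here encode the Fanconi anemia pathway and the machinery of homologous recombination, together with the damage kinases that act beside them. They were chosen as a list of names, with earlier results of these data known. They are 38 of 15724 genes named in at least 1 library. All 38 reached the level needed for testing, a mean of at least 1 FPKM, as did 12589 genes in all. Transcript levels were measured by poly-A RNA sequencing in WM3248, an established line of human melanoma cells. The cells were exposed for 24 h to vehicle alone (DMSO, the 0 µM group) or to ARN22089 at 4 or 6 µM. ARN22089 is a small molecule made to block the binding of CDC42-family GTPases to their effectors. Each dose had 3 libraries, all from the 1 cell line in the same medium. Whether the 3 were separate cultures is not said in the labels, and p-values therefore speak only of the variation among these libraries, part or all of it possibly technical.

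The Fanconi anemia pathway removes crosslinks that tie the strands of DNA together and so stop replication forks. Its core complex is a ubiquitin ligase that, with the conjugating enzyme UBE2T, marks the paired proteins FANCD2 and FANCI at the stalled fork. Nucleases then unhook the crosslink, and homologous recombination restores the broken arm: the MRE11, RAD50 and NBN complex with RBBP8 (CtIP) trims the ends, BRCA1, PALB2 and BRCA2 load the recombinase, and its paralogs and the RAD54 motors carry the strand exchange through. Recombination uses the sister chromatid as its template and is therefore mostly confined to S and G2 phase. Transcripts of many, but not all, of these genes are higher in cycling than in resting cells.

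Each gene had 2 measures, because every library was assembled on its own. The summed value added the FPKM (fragment number normalised for transcript length and library size) of all transcripts named for the gene. It counts a gene more than once where the gene was assembled as separate pieces. The consensus exon value averages FPKM, base by base, along those exonic positions where the gene was assembled in 5 or more of the 9 libraries. Positions that a library left unassembled count as 0 in that library, so incomplete assembly lowers this value. BRCA1 was assembled with 21, 22 and 22 of its 22 introns at 0 µM and 13, 13 and 15 at 6 µM. RBBP8 had all 18 of its introns in every library. How far this enters the differences was not tested. In 89 of 320 pairs of a gene and a library the summed value was more than 1.5 times the consensus exon value, and 26 of the genes had at least 1 such library. ATM, a gene with 62 introns, was in 1 to 6 pieces, and its summed value exceeded the consensus exon value by up to 4.66 times. UBE2T, with 6 introns, was assembled whole in every library and the measures differed by at most 1.01 times. Of the 38 genes, 36 had a consensus exon value; RAD54L and EME1 did not, since they were assembled in 4 and 2 libraries.

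Libraries held 26506 to 30798 transcripts. Depth in reads is unknown; relative depth, from coverage per FPKM, was lowest in the third 4 µM library (0.8) and highest in the first 6 µM library (1.34). Replicate 3 at 0 µM stood apart in its FPKM sum, 1061112 against 587999 to 689699 in the other libraries. All 8 melanocyte lineage markers were assembled, though not all in every library. SOX10 held 103 to 160 FPKM and TYRP1 1.19 to 3.87 FPKM, and MLANA was at 0 in 1 library and reached 9.22 FPKM. PTPRC, CD3E, CDH5, VWF, CLDN5, EPCAM, CDH1 and KRT5, which define leukocytes, endothelium or epithelium, were at 0 in all 9 libraries. Others of those lists were not: KRT18 held 22.3 to 145 FPKM, PECAM1 1.65 to 6.84 FPKM and LYZ 2.62 to 4.45 FPKM, KRT14 was at 0 in 3 libraries and reached 2.27 FPKM, and CD68 was at 0 in 8 libraries and 142 FPKM in the other. Among fibroblast markers LUM reached 26.9 FPKM and COL1A1 was at 0 in 6 libraries.

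Promoter sequences are shown first because several of these genes are textbook targets of E2F factors and of the cell cycle complexes that read CHR and CCAAT elements. RefSeq (GRCh38.p14) promoter windows, 250 bases before to 50 after a start, matched 35 of the 38 genes. The words TTTCCCGC, TTTCGCGC, TTTGCCGC and TTTGGCGC (E2F), TTTGAA or TTCGAA (CHR) and CCAAT were searched on both strands, and none of these words contains another. An E2F word occurred in 6 of the 35 windows (17.1%), against 3.31% of all 35116 windows: those of FANCA, FANCC, FANCD2, XRCC2, EXO1 and TOPBP1. CCAAT occurred in 16 of 35 (45.7%, against 34.6% of all windows), and a CHR word in 3 of 35 (8.57%, against 16.4%). Each repair gene entered with 1 window, though some, such as EXO1 and CHEK1, had 2 or 3 starts. The 35116 windows outnumber the 15724 genes named in these libraries, so the shares do not compare matched sets. The stretches below run 5′ to 3′ on the gene's strand with the matched letters in capitals; where a match lies at or past the start, only 30 bases around it are given. The first 4 hold an E2F word, UBE2T holds a CHR word followed by 2 CCAAT boxes, and RAD51AP1 holds a CCAAT box read on the other strand.
FANCA, chr16:89816720-89816839, minus strand: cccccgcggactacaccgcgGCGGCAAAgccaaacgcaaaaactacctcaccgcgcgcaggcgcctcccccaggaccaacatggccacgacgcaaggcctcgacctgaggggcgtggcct
FANCD2, chr3:10026424-10026453, plus strand: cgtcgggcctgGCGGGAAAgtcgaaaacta
XRCC2, chr7:152676102-152676131, minus strand: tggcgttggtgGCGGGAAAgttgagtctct
TOPBP1, chr3:133661930-133661959, minus strand: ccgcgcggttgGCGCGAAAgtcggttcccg
UBE2T, chr1:202341990-202342109, minus strand: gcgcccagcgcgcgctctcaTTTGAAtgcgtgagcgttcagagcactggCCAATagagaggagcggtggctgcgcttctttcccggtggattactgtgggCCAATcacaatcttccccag
RAD51AP1, chr12:4538770-4538889, plus strand: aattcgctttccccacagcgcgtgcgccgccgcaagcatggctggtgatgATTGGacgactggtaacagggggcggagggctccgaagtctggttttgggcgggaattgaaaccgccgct

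These matches are letters in a window and not measured binding. In FANCD2 and TOPBP1 the E2F word spans the annotated start, in XRCC2 it begins 21 bases after it, and in FANCA it begins 172 bases before it. The 5′ end of the assembled transcript with the most FPKM lay a median of 38307 bases from the annotated start in FANCD2. In FANCA, XRCC2 and TOPBP1 that distance was 4, 11 and 25 bases. The median difference between 6 and 0 µM in the consensus exon value, on the log2(FPKM + 1) scale used for all differences below, was -0.88 over the 6 genes with an E2F word and -0.55 over the 27 genes without one. It was -0.70 over 3 genes with and -0.62 over 30 without a CHR word, and -0.70 over 15 genes with and -0.56 over 18 without CCAAT.

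Most of the repair genes had lower fitted levels after 24 h of ARN22089. In the consensus exon value, the differences between 6 and 0 µM were negative for 31 of 36 genes (28 of 36 after rescaling to a fixed FPKM sum), with a median of -0.69 beside -0.06 over all 11915 genes tested. Of these, 10 fell past the threshold (limma, Benjamini-Hochberg adjusted p below 0.05 over all genes): FANCG, FANCI, BRCA1, BARD1, RAD54B, RAD51AP1, MRE11, RBBP8, CHEK1 and TOPBP1. None rose. Over all genes 2.8% fell past the threshold in that comparison. At unadjusted p below 0.05, 23 of 36 were lower and 0 higher, against 15.7% lower over all genes, and in 24 of 36 the libraries at 6 µM all lay below those at 0 µM, against 19.4% of all genes.

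The main test, on the summed value, called 0 of the 38 genes at 6 against 0 µM, where 0.127% of all genes fell past the threshold. The lowest adjusted p among the genes was 0.0632. The difference was negative for 29 of 38 genes (27 of 38 after the rescaling) with a median of -0.48, beside -0.03 over all genes. At unadjusted p below 0.05, 10 were lower and 0 higher, against 9.47% lower over all genes. In 15 genes all libraries at 6 µM lay below those at 0 µM, against 13.8% of all genes. The plot of both measures shows where they part.

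**Figure D1:**
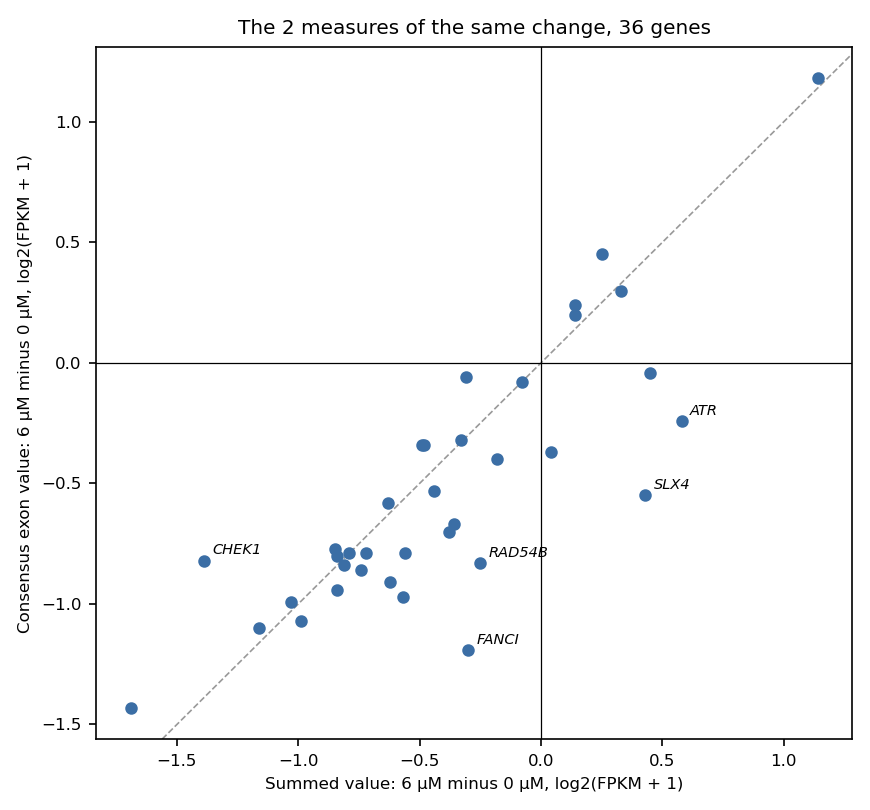
Difference between 6 and 0 µM in log2(FPKM + 1) for 36 repair genes, with the summed value on the x axis and the consensus exon value on the y axis; each point is 1 gene, the dashed line marks equality, and genes whose measures differ by more than 0.5 are named. Most points lie in the lower left, FANCI and RAD54B are lower by the consensus exon value, CHEK1 is lower by the summed value, and ATR, SLX4, PALB2 and BRCA2 change sign.

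At 4 against 0 µM neither measure called a gene. The consensus exon value gave 30 of 36 negative differences (19 of 36 after the rescaling) and a median of -0.40, with 17 lower and 1 higher (XRCC3) at unadjusted p below 0.05. In all, 0.0168% of all genes fell past the threshold. At unadjusted p below 0.05, 7.47% of all genes were lower, and 895 of 11915 were higher. In 14 genes the libraries at 4 µM all lay below those at 0 µM, against 11% of all genes. The summed value gave 29 of 38 negative and a median of -0.26 (after the rescaling 16 of 38 and 0.04), with 7 lower and 0 higher at unadjusted p, beside 0.00794% of all genes past the threshold and 4.56% at unadjusted p. In 13 genes the libraries did not overlap downwards, against 8.29% of all genes. Between 6 and 4 µM no gene passed: limma called 0 of 36 by the consensus exon value, where 0.00839% of all genes fell, and 0 of 38 by the summed value, where 0.00794% fell. At unadjusted p below 0.05, 4 genes were lower by each measure, against 3.37% of all genes in the consensus exon value and 2.88% in the summed value, and the medians were -0.27 and -0.23. Both doses were compared with the same 3 libraries at 0 µM.

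**Figure D2:**
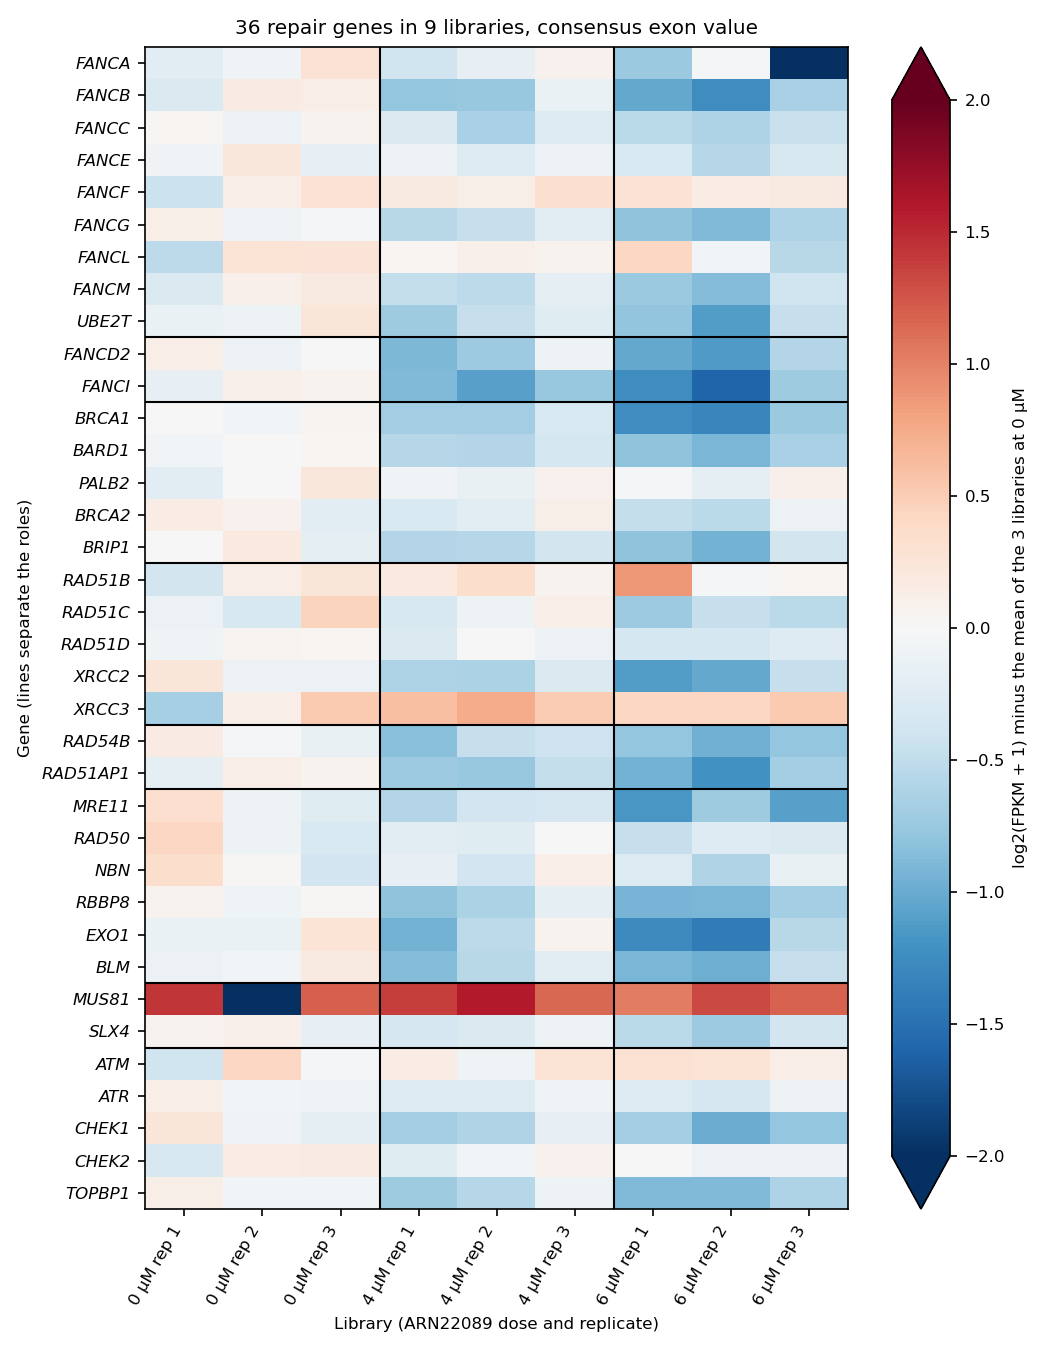
Consensus exon value of 36 repair genes (rows, grouped by role) in the 9 libraries (columns), as log2(FPKM + 1) minus the gene's mean over the 3 libraries at 0 µM; blue is lower, red is higher, and the scale ends at 2 in each direction. The libraries at 6 µM are blue for most genes and replicate 3 is paler than replicates 1 and 2, while FANCF, XRCC3 and ATM are not blue, and the darkest cells of FANCA and MUS81 are libraries at 0.

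The direction held in each replicate number. Comparing the 6 and 0 µM libraries of the same number, the median over the 36 genes was -0.64, -0.80 and -0.57 in replicates 1, 2 and 3, with 29, 32 and 31 genes negative. For 4 against 0 µM it was -0.50, -0.40 and -0.17. Rescaling each library to a fixed FPKM sum (TPM), after which the median of all genes was 0.21 for 6 µM and 0.30 for 4 µM, left medians of the 36 genes that differed from it by -0.72 and -0.41, with 29 and 30 genes below it. With the rescaling none of the 10 genes passed, and BRCA1 had an adjusted p of 0.134.

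The 10 calls also depended on which libraries entered the fit. Without replicate 1 of 0 µM there were 6 calls, without replicate 1 of 4 µM 5, without replicate 2 of 4 µM 1, and without replicate 2 or 3 of 0 µM or replicate 1 or 2 of 6 µM 0. Without replicate 3 of 4 µM there were 12 and without replicate 3 of 6 µM 14. The number of calls over all genes changed between these fits as well, with its range given below. Whether the counts of repair genes follow that number was not tested. All 10 differences stayed negative in each of these fits. BRCA1 kept its call in the most of them and lost it in 4 of 9, while CHEK1 lost it in 8.

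The core complex and its E2 enzyme had 8 of 9 negative differences at 6 µM by the consensus exon value (median -0.67), and 1 gene, FANCG, fell. FANCG is an adaptor subunit of the core complex (chr9:35073839-35079942, minus strand). Its consensus exon value was 11.1, 9.67 and 9.85 FPKM in replicates 1 to 3 at 0 µM, 6.61, 7.14 and 8.60 FPKM at 4 µM, and 5.41, 5.07 and 6.29 FPKM at 6 µM. The doses did not overlap with 0 µM. At 6 µM the difference was -0.77 ± 0.13 (SE; adjusted p = 0.0275), and by the summed value -0.85 ± 0.18 (adjusted p = 0.0719).

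UBE2T, which passes ubiquitin to FANCD2, had the highest level of the 36 genes. Its 0 µM libraries held 94.2, 96.7 and 123 FPKM, its 4 µM libraries 63.4, 74.9 and 87.3 FPKM, and its 6 µM libraries 59.8, 47.4 and 74.8 FPKM. All libraries of both doses were below all of 0 µM. At 6 µM UBE2T differed by -0.79 ± 0.20 (SE) and did not pass (adjusted p = 0.0608), though it did with the replicate block (adjusted p = 0.0304).

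The other core subunits did not share 1 pattern. FANCB, an X-linked subunit of the catalytic module, had vehicle libraries at 3.66 ± 0.784 FPKM (SD, n = 3), and treated ones at 2.22 ± 0.865 FPKM (4 µM) and 1.39 ± 0.514 FPKM (6 µM). Its 6 µM libraries lay below all of 0 µM. With all 9 libraries its difference of -0.97 passed with the replicate block (adjusted p = 0.0367) and not without it (0.059). FANCC, FANCE and FANCM, the last a DNA translocase that anchors the complex, differed by -0.53, -0.40 and -0.67, with all 6 µM libraries below those of 0 µM and adjusted p from 0.0745 to 0.123. FANCF, an adaptor, and FANCL, the ubiquitin ligase subunit itself, measured 6.40 ± 1.81 and 18.9 ± 5.69 FPKM at 0 µM and 7.33 ± 0.440 and 18.2 ± 6.35 FPKM at 6 µM. Their differences were 0.20 (95% confidence interval -0.21 to 0.61) and -0.06 (-0.69 to 0.58), and the interval of FANCL includes the -0.53 of FANCC.

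FANCA, a large core subunit with 42 introns, was listed at 0 in replicate 3 at 6 µM by both measures, and an exact 0 in these files can be a failed assembly. The other libraries held 8.80, 9.98 and 13.1 FPKM at 0 µM, 7.70, 9.29 and 11.2 FPKM at 4 µM and 5.89 and 10.2 FPKM at 6 µM by the consensus exon value, and by that measure the doses overlap. In the summed value FANCA held 15.4, 14.1 and 14.1 FPKM at 0 µM, 7.70, 9.45 and 11.2 FPKM at 4 µM and 8.89 and 10.2 FPKM in the other 6 µM libraries. All treated libraries lay below vehicle by that value, and neither dose passed: the summed difference was -0.58 ± 0.80 (SE; adjusted p = 0.805) at 4 µM and -1.69 ± 0.80 (adjusted p = 0.314) at 6 µM.

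**Figure D3:**
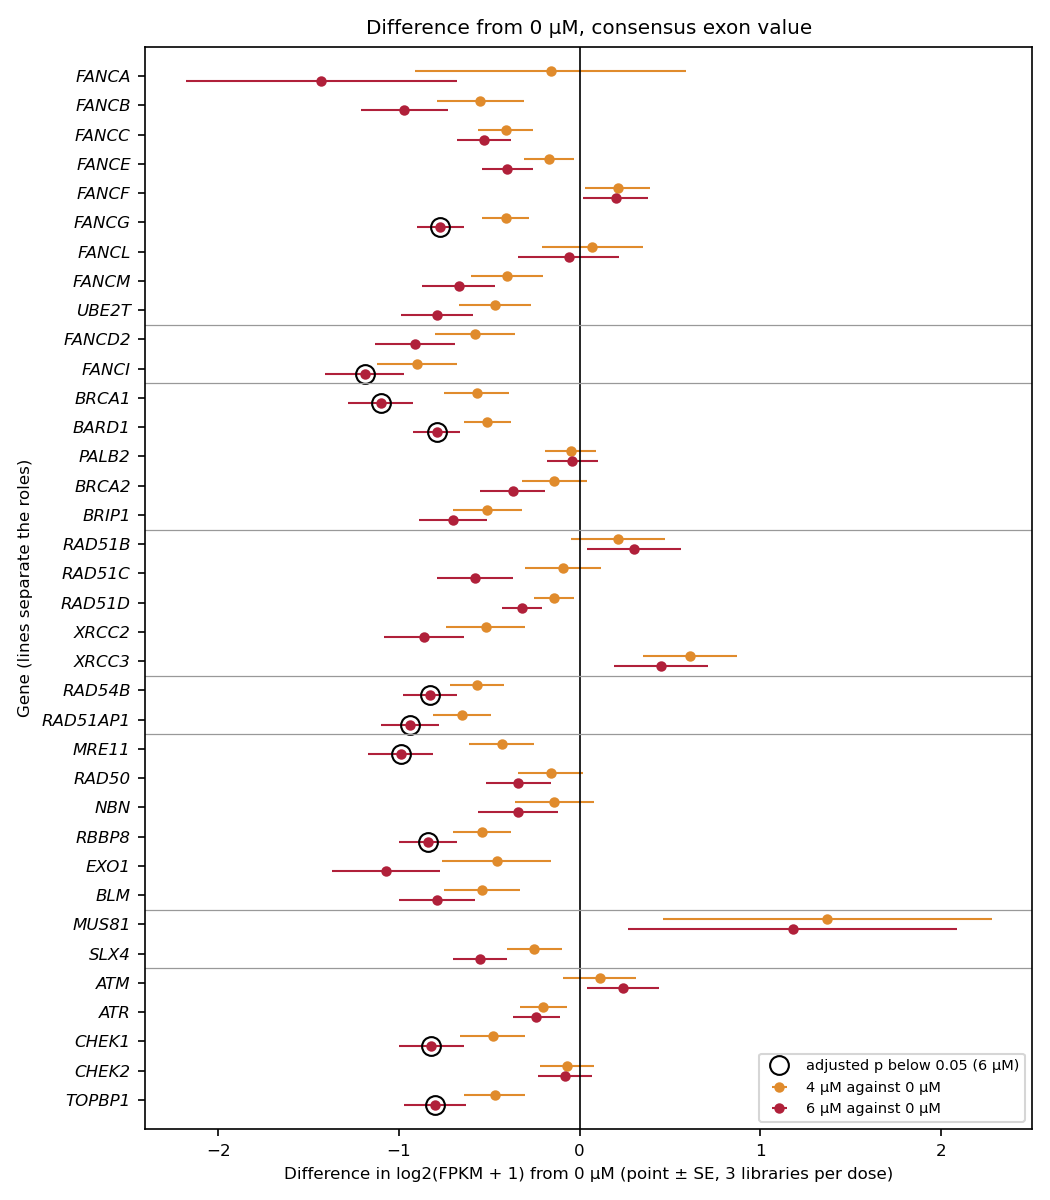
Difference from 0 µM in log2(FPKM + 1) of the consensus exon value for 36 repair genes (rows, in role order); points are the fitted differences at 4 µM (orange) and 6 µM (red), bars are ± 1 SE, and circles mark the 10 genes past the threshold at 6 µM. Circled genes lie between -0.77 and -1.19, and the widest bars belong to FANCA and MUS81, each with 1 library at 0.

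Both proteins of the pair that receives the ubiquitin mark were among the larger negative differences, and FANCI fell. FANCI (chr15:89243979-89317259, plus strand) measured 22.5, 27.3 and 26.7 FPKM at 0 µM, 13.4, 11.4 and 14.7 FPKM at 4 µM and 10.2, 7.66 and 15.1 FPKM at 6 µM. No treated library reached the lowest of 0 µM. Its difference of -1.19 ± 0.22 (SE; adjusted p = 0.0318) was the most negative of the genes without a 0. At 4 µM it was -0.90 ± 0.22 (adjusted p = 0.185).

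FANCI is also where the measures differed most in the calls. Its summed values were 22.7, 27.4 and 26.9 FPKM at 0 µM, 13.6, 36.1 and 34.3 FPKM at 4 µM and 20.9, 15.9 and 26.2 FPKM at 6 µM. These overlap between doses, and the summed difference at 6 µM was -0.30 ± 0.35 (adjusted p = 0.691). FANCI was assembled as 1 to 5 transcripts, and the summed value exceeded the consensus exon value by up to 3.17 times.

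FANCD2 is the partner of FANCI and carries the mark used to score the pathway in cells. It measured 9.36, 7.76 and 8.41 FPKM at 0 µM, 4.08, 4.75 and 7.81 FPKM at 4 µM and 3.69, 3.34 and 5.33 FPKM at 6 µM. Replicate 3 at 4 µM reached the 0 µM range, and no 6 µM library did. At 6 µM FANCD2 differed by -0.91 ± 0.22 (SE; adjusted p = 0.0566, and 0.0427 with the replicate block), and the summed one -0.62 ± 0.43 (adjusted p = 0.489).

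In the group that loads the recombinase, BRCA1 and its partner BARD1 fell and PALB2 and BRCA2 did not pass. BRCA1 (chr17:43044295-43170327, minus strand), a ubiquitin ligase that promotes resection and brings in PALB2, measured 8.98, 8.55 and 9.31 FPKM at 0 µM. It measured 5.13, 5.11 and 7.07 FPKM at 4 µM and 3.19, 3.01 and 4.95 FPKM at 6 µM. The 3 doses did not overlap with each other. The difference was -1.10 ± 0.18 (SE; adjusted p = 0.0271) at 6 µM and -0.57 ± 0.18 (adjusted p = 0.242) at 4 µM. By the summed value it was -1.16 ± 0.29 (adjusted p = 0.101) at 6 µM.

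BARD1 (chr2:214725646-214809683, minus strand) is the obligate partner of BRCA1 in the ligase. It measured 3.27, 3.46 and 3.55 FPKM at 0 µM, 1.97, 1.94 and 2.45 FPKM at 4 µM and 1.53, 1.36 and 1.81 FPKM at 6 µM. As with BRCA1, no library of 1 dose overlapped another dose. The difference at 6 µM was -0.79 ± 0.13 (SE; adjusted p = 0.0285), against -0.56 ± 0.25 (adjusted p = 0.293) by the summed value.

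BRIP1, the helicase that binds BRCA1, measured 2.61 ± 0.491 FPKM (SD, n = 3) at 0 µM and 1.23 ± 0.472 FPKM at 6 µM, with no overlap and adjusted p = 0.0697. PALB2, the bridge between BRCA1 and BRCA2, measured 5.57 ± 0.979, 5.33 ± 0.519 and 5.35 ± 0.623 FPKM at 0, 4 and 6 µM. Its difference at 6 µM was -0.04 (95% confidence interval -0.37 to 0.28), an interval that leaves out the differences of BRCA1 and BARD1. Its summed value of 15.9 FPKM in replicate 1 at 6 µM, against 5.32 FPKM over consensus exons, came from 2 transcripts, and the summed difference was 0.45 ± 0.36 (SE; adjusted p = 0.548). BRCA2, which delivers the recombinase to DNA, measured 3.59 ± 0.608 FPKM at 0 µM and 2.55 ± 0.592 FPKM at 6 µM, with overlapping libraries and an interval of -0.78 to 0.04. Its summed difference was 0.04 ± 0.33 (SE; adjusted p = 0.972).

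None of the 5 paralogs of the recombinase passed the test, and they did not share a direction. XRCC2 had the lowest levels of the 36 genes at 6 µM. It measured 2.83, 1.99 and 2.00 FPKM at 0 µM, 1.11, 1.09 and 1.66 FPKM at 4 µM and 0.506, 0.600 and 1.36 FPKM at 6 µM. No treated library reached 0 µM, and the difference at 6 µM was -0.86 ± 0.22 (SE; adjusted p = 0.063). By the summed value it was -0.74 ± 0.27 (adjusted p = 0.217).

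RAD51D, which pairs with XRCC2, measured 5.01, 5.63 and 5.61 FPKM at 0 µM, 4.25, 5.35 and 4.93 FPKM at 4 µM and 4.00, 4.02 and 4.39 FPKM at 6 µM. Only the 6 µM libraries lay wholly below 0 µM, by a smaller step than in XRCC2. The difference at 6 µM was -0.32 ± 0.11 (SE; adjusted p = 0.125) and by the summed value -0.33 ± 0.15 (adjusted p = 0.299). RAD51C, a member of both paralog complexes, measured 20.1 ± 6.14 FPKM at 0 µM and 12.8 ± 1.25 FPKM at 6 µM (SD, n = 3), with adjusted p = 0.131.

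RAD51B and XRCC3 had positive differences. RAD51B measured 3.81 ± 1.00 FPKM at 0 µM and 5.08 ± 2.25 FPKM at 6 µM, where replicate 1 alone held 7.67 FPKM. XRCC3 was listed at 0 in replicate 1 at 0 µM and replicate 3 at 6 µM by the summed value. Same-strand transcripts not named for XRCC3 covered its consensus exons there, at 5.34 and 13.4 FPKM. Its consensus exon value in those libraries rests on such transcripts. By that measure it held 10.0 and 13.4 FPKM in the other 0 µM libraries, 14.2, 15.7 and 13.2 FPKM at 4 µM and 12.3, 12.3 and 13.4 FPKM at 6 µM. The difference at 6 µM was 0.45 (95% confidence interval -0.14 to 1.03).

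**Figure D4:**
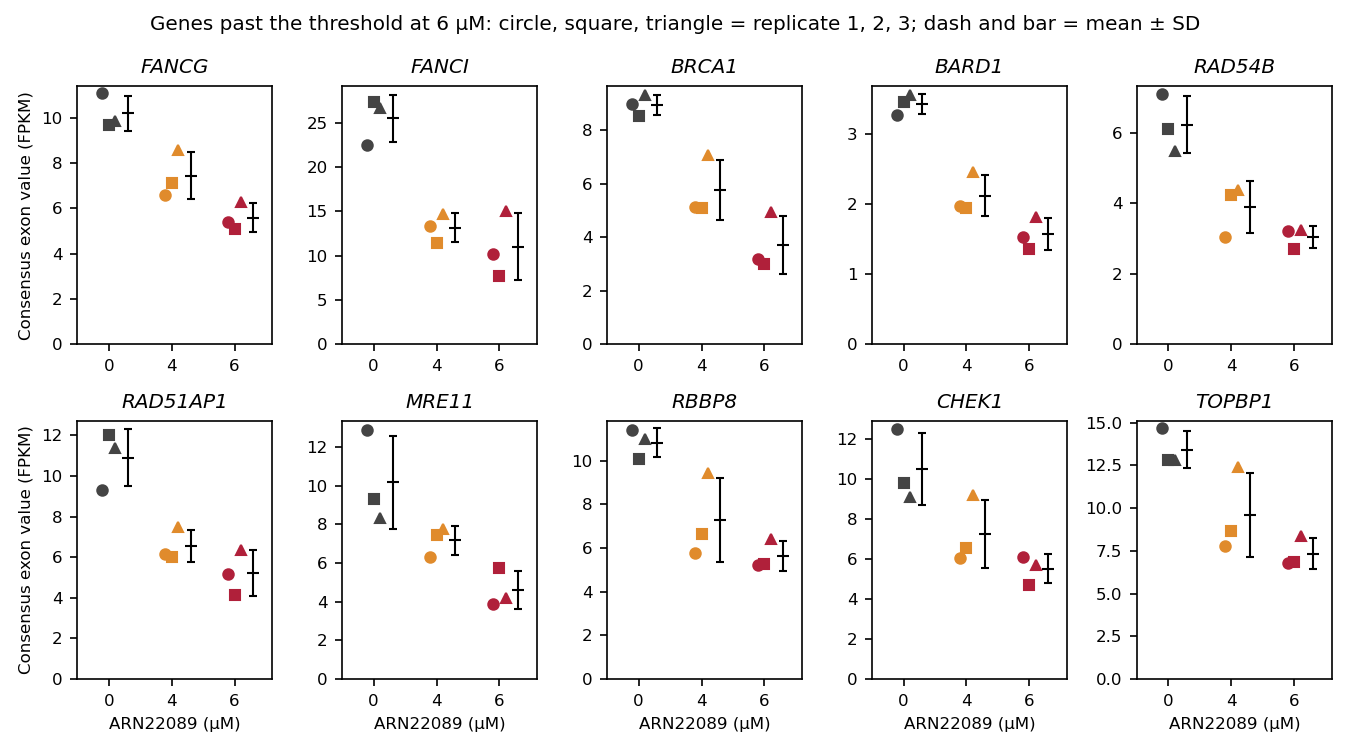
Consensus exon value in FPKM (y axis, from 0) against ARN22089 dose in µM (x axis) for the 10 genes past the threshold at 6 µM; symbols are the 3 replicates, and the dash and bar give the mean ± SD. In every panel the libraries at 6 µM lie below those at 0 µM, and in most panels replicate 3, the triangle, is the highest of the treated libraries.

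RAD54B and RAD51AP1, which act on the recombinase filament, both fell. RAD54B is a DNA translocase of the RAD54 family. It is not among the 2 genes of its role with the smallest unadjusted p in the summed value, and is given because it passed. It measured 7.10, 6.09 and 5.49 FPKM at 0 µM, 3.03, 4.24 and 4.38 FPKM at 4 µM and 3.21, 2.69 and 3.23 FPKM at 6 µM, without overlap between treated and vehicle libraries. At 6 µM it differed by -0.83 ± 0.15 (SE; adjusted p = 0.0313). Its summed value, with 7.58 FPKM in replicate 2 at 6 µM, overlapped and gave -0.25 ± 0.28 (adjusted p = 0.675).

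RAD51AP1 (chr12:4538890-4560047, plus strand) stimulates joint molecule formation. It measured 9.33, 12.0 and 11.4 FPKM at 0 µM, 6.18, 6.00 and 7.48 FPKM at 4 µM and 5.17, 4.14 and 6.36 FPKM at 6 µM. All treated libraries were below all vehicle libraries. The differences were -0.65 ± 0.16 (SE; adjusted p = 0.195) at 4 µM and -0.94 ± 0.16 (adjusted p = 0.0287) at 6 µM. The summed value gave -0.84 ± 0.43 (adjusted p = 0.352) at 6 µM, with 15.1 FPKM in replicate 3.

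RAD54L, the other motor, was assembled in 4 libraries only. By the summed value it held 11.1 and 8.02 FPKM in replicates 1 and 2 at 0 µM, 7.08 FPKM in replicate 3 at 4 µM and 3.72 FPKM in replicate 1 at 6 µM, and was listed at 0 in the other libraries. It was above 0 in 2 of 3 vehicle and 2 of 6 treated libraries, and the difference at 6 µM was -1.51 ± 1.19 (SE; adjusted p = 0.542).

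All 6 end resection genes had negative differences at 6 µM by both measures, and MRE11 and RBBP8 fell in the consensus exon value. MRE11 (chr11:94415570-94512412, minus strand), the nuclease that starts resection, measured 12.9, 9.30 and 8.34 FPKM at 0 µM, 6.33, 7.46 and 7.76 FPKM at 4 µM and 3.90, 5.76 and 4.19 FPKM at 6 µM. The 3 doses did not overlap. The difference at 6 µM was -0.99 ± 0.18 (SE; adjusted p = 0.0321), and by the summed value -1.03 ± 0.35 (adjusted p = 0.195).

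RBBP8 (chr18:22914139-23026486, plus strand), known as CtIP, switches on the MRE11 nuclease in S and G2 phase. It measured 11.4, 10.1 and 11.0 FPKM at 0 µM, 5.77, 6.66 and 9.42 FPKM at 4 µM and 5.21, 5.25 and 6.41 FPKM at 6 µM. Treated and vehicle libraries did not overlap. At 6 µM RBBP8 differed by -0.84 ± 0.16 (SE; adjusted p = 0.0336), and by the summed value -0.81 ± 0.18 (adjusted p = 0.0834).

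The partners of MRE11 did not pass. RAD50, the ATPase of the complex, measured 4.68 ± 1.51 FPKM at 0 µM and 3.41 ± 0.324 FPKM at 6 µM, and NBN, its signalling subunit, 16.3 ± 4.32 and 12.4 ± 2.06 FPKM (SD, n = 3). Their intervals were -0.76 to 0.08 and -0.84 to 0.15, and the libraries overlapped. For long-range resection, EXO1, an exonuclease, measured 22.7 ± 4.09 and 10.6 ± 3.86 FPKM, and BLM, the helicase mutated in Bloom syndrome, 4.92 ± 0.672 and 2.46 ± 0.702 FPKM. These 2 genes did not overlap between 0 and 6 µM. With all 9 libraries they passed with the replicate block (adjusted p = 0.0232 for EXO1 and 0.0284 for BLM) and not without it (0.0736 and 0.0651).

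The structure-selective nucleases, which cut branched intermediates, were the least securely measured. EME1, the partner of MUS81, held 8.35 and 6.97 FPKM in replicates 2 and 3 at 0 µM by the summed value and was listed at 0 in the other 7 libraries, replicate 1 at 0 µM among them. Its difference of -2.07 ± 0.78 (SE; adjusted p = 0.226) rests on those zeros, and without replicate 1 of 0 µM it passed (adjusted p = 0.00173). MUS81 was listed at 0 in replicate 2 at 0 µM and held 15.5 and 13.1 FPKM in the other vehicle libraries and 11.5 to 17.5 FPKM in the 6 treated ones.

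SLX4, the scaffold that holds several nucleases, changed sign between measures. Its summed values were 3.40, 3.52 and 2.62 FPKM at 0 µM, 3.20, 4.56 and 7.41 FPKM at 4 µM and 5.22, 4.45 and 4.18 FPKM at 6 µM. Of all 12589 genes, 1378 had 6 µM libraries that all lay above those of 0 µM by that value. SLX4 was the only such gene of the 38 (0.43 ± 0.26, SE; adjusted p = 0.429). Over consensus exons it measured 3.39, 3.50 and 2.75 FPKM at 0 µM and 1.89, 1.54 and 2.26 FPKM at 6 µM, all lower, with a difference of -0.55 ± 0.15 (adjusted p = 0.0703). It was assembled as 1 to 5 transcripts.

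In the damage checkpoint, CHEK1 and TOPBP1 fell by the consensus exon value, and ATR, ATM and CHEK2 did not pass. CHEK1 (chr11:125625136-125681124, plus strand), the effector kinase of ATR, measured 12.5, 9.81 and 9.09 FPKM at 0 µM, 6.04, 6.53 and 9.18 FPKM at 4 µM and 6.11, 4.70 and 5.68 FPKM at 6 µM. Replicate 3 at 4 µM reached the 0 µM range. The difference at 6 µM was -0.82 ± 0.18 (SE; adjusted p = 0.0428), which did not pass with the replicate block (adjusted p = 0.0531). By the summed value CHEK1 had the lowest adjusted p of the 38 genes, 0.0632, with a difference of -1.39 ± 0.25.

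TOPBP1 (chr3:133600238-133661941, minus strand) activates ATR at stalled forks. It measured 14.7, 12.8 and 12.8 FPKM at 0 µM, 7.80, 8.65 and 12.4 FPKM at 4 µM and 6.80, 6.85 and 8.37 FPKM at 6 µM, and no treated library reached the vehicle range. At 6 µM TOPBP1 differed by -0.80 ± 0.17 (SE; adjusted p = 0.0383), and by the summed value -0.84 ± 0.19 (adjusted p = 0.0872).

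The kinases ATR, ATM and CHEK2 did not pass. ATR measured 3.63 ± 0.384 and 2.92 ± 0.332 FPKM at 0 and 6 µM, with a difference of -0.24 (95% confidence interval -0.53 to 0.05). The summed difference of ATR was 0.58 ± 0.46 (SE; adjusted p = 0.541), with 15.7 FPKM in replicate 1 at 6 µM and 9.04 FPKM in replicate 1 at 0 µM. ATM measured 8.15 ± 2.58 and 9.52 ± 0.650 FPKM (0.24, interval -0.21 to 0.68). CHEK2, the effector kinase of ATM, measured 15.8 ± 2.98 and 14.8 ± 0.591 FPKM (-0.08, interval -0.42 to 0.27). The interval of each leaves out the -0.80 of TOPBP1. The differences between these genes were not themselves tested.

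Other repair pathways were described with the same measure, the consensus exon value. In it 2.8% of all genes fell past the threshold at 6 µM. Of 44 further Fanconi and recombination genes tested, 34 had negative differences at 6 µM, with a median of -0.28, and 4 fell: FAAP24, USP1, DNA2 and RFWD3. USP1, which removes the ubiquitin from FANCD2, measured 14.3 ± 2.41 FPKM at 0 µM and 6.17 ± 2.03 FPKM at 6 µM (adjusted p = 0.035), and RFWD3, a ubiquitin ligase that acts at stalled forks, 19.7 ± 0.874 and 9.78 ± 2.35 FPKM (adjusted p = 0.0291). Of 19 other checkpoint and damage signalling genes 17 were negative (median -0.66) and 4 fell, among them CLSPN, the adaptor through which ATR reaches CHEK1, by -1.44 ± 0.27 (SE; adjusted p = 0.0333). Mismatch repair had a median of -0.37 and 2 of 7 genes past the threshold. MSH6, a subunit of its mismatch sensor, was among them and differed by -1.07 ± 0.23 (SE; adjusted p = 0.0411). End joining had a median of -0.25 and 1 of 10 genes past the threshold, PRKDC, the DNA-dependent kinase, at -0.98. Base excision repair (-0.14, 1 of 20, the glycosylase NEIL3) and nucleotide excision repair (-0.09, 0 of 18 by limma, with 3 lower and 1 higher at unadjusted p below 0.05, and 0 by the summed value) lay nearer to the median of all genes. Over all genes 15.7% were lower at unadjusted p below 0.05 by the consensus exon value. By the summed value limma called none of the genes of these 6 lists, where 0.127% of all genes fell. At unadjusted p below 0.05 it gave 11 of 44 lower among the further Fanconi and recombination genes and 6 of 19 in checkpoint signalling. Mismatch repair had 4 of 7, end joining 0 of 10, base excision repair 5 of 20 and nucleotide excision repair 3 of 18. Over all genes the share lower was 9.47%. The summed medians were -0.25, -0.55, -0.66, -0.25, -0.19 and -0.02 in that order. All 7 mismatch repair genes had negative differences by the summed value, against 5 by the consensus exon value.

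**Figure D5:**
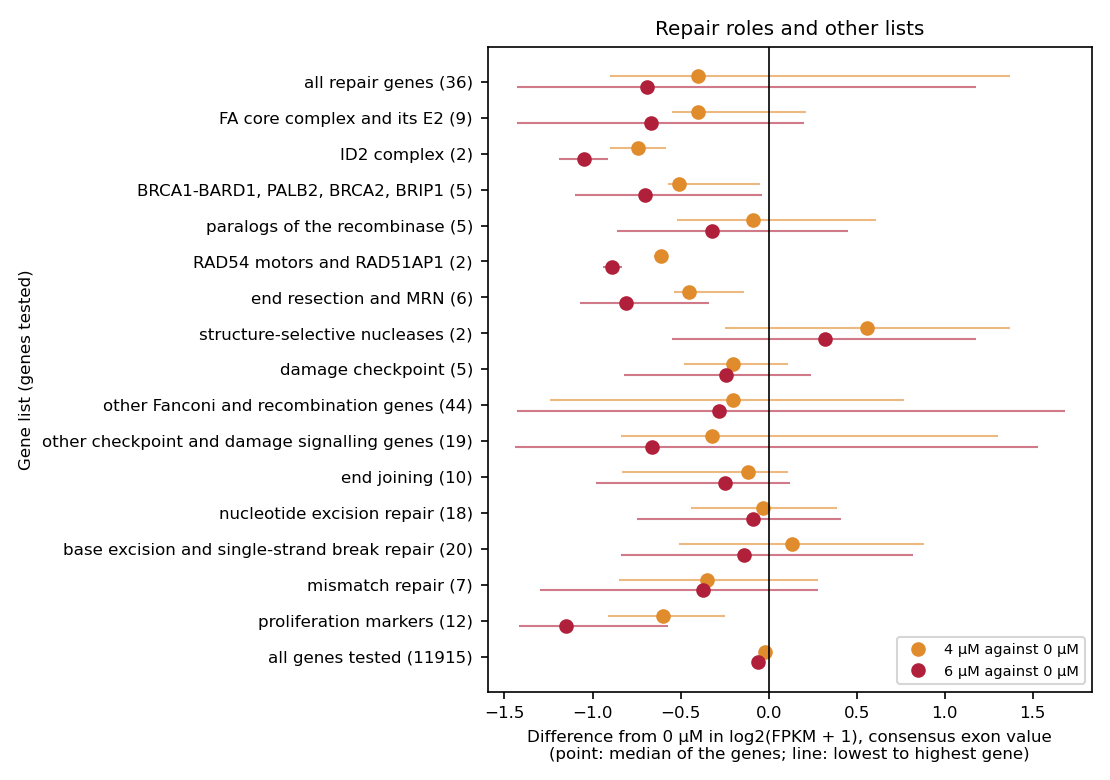
Difference from 0 µM in log2(FPKM + 1) of the consensus exon value for the 36 repair genes together and in their 8 roles, for 7 other gene lists and for all genes tested; points are medians over the genes at 4 µM (orange) and 6 µM (red), lines run from the lowest to the highest gene, and the number of genes is in brackets. Proliferation markers have the lowest median at 6 µM (-1.15), the ID2 pair follows (-1.05), and nucleotide excision repair (-0.09) lies close to all genes (-0.06).

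Proliferation markers moved with the repair genes. All 12 had negative differences at 6 µM (median -1.15), and 11 fell by the consensus exon value, PCNA being the exception. By the summed value 1 of 12 fell and the median was -1.20. Over all genes 2.8% fell by the consensus exon value and 0.127% by the summed value. TOP2A, the topoisomerase of dividing cells, measured 81.5 ± 5.15 FPKM (SD, n = 3) at 0 µM and 31.1 ± 6.42 FPKM at 6 µM (adjusted p = 0.0228). The consensus exon values of the 12 markers added up to 772 to 928 FPKM in the libraries at 0 µM, 554 to 711 FPKM at 4 µM and 388 to 536 FPKM at 6 µM. Those of the 36 repair genes added up to 394 to 455, 296 to 382 and 248 to 297 FPKM. The marker ranges did not overlap between doses, and those of the repair genes overlapped only between 4 and 6 µM. The 8 melanocyte lineage markers all had positive differences (median 1.03, none past the threshold by limma, 4 higher at unadjusted p below 0.05 and none called by the summed value). Of all 11915 genes, 1144 were higher at unadjusted p below 0.05 by the consensus exon value. The part of either list in the repair result was not tested, and in bulk RNA fewer cells of a kind and less RNA per cell cannot be told apart.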

How the data were processed

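Poly-A RNA of 9 libraries was used, 3 per dose. The tools include TopHat2 2.1 on Bowtie2 2.2.7, and Cufflinks 2.2.1, per the submitters' processing notes, which also list Trimmomatic, SAMtools 1.9 and R 4.0.3. The authors deposited 1 Cufflinks assembly per library, with FPKM per transcript and no gene names or read counts. The notes name GRCh37, but 2005 of 257156 transcripts end past the GRCh37 chromosome ends and 21 sequence names are absent from it, so coordinates are taken as GRCh38.

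Transcripts were named in Python 3.11.15 (pandas 2.3.3) by the RefSeq GRCh38 gene they overlapped on the same strand and by shared intron lengths (GENCODE); 185715 of 193769 spliced transcripts (95.8%) matched. A single-exon transcript needed at least 50% of its length in 1 gene. Values of overlapping and antisense genes are uncertain. The consensus exon value sums all same-strand transcripts on its bases. Correlations across genes between libraries of a dose were 0.884 to 0.913 (summed) and 0.932 to 0.958 (consensus). Between libraries of different doses they were 0.853 to 0.911 and 0.91 to 0.96, ranges that overlap those within a dose.

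Genes averaging 1 FPKM or more entered 1 limma 3.58.1 fit (R 4.3.3) of log2(FPKM + 1) on dose over all 9 libraries, with a mean-dependent variance prior and Benjamini-Hochberg adjustment, and 6 residual degrees of freedom. The pseudocount makes differences understate the change of low genes. The procedure was tested on simulated data. The summed value was the main measure and the consensus exon value an alternative to it. Other alternatives changed the pseudocount, filter, scaling, samples in the fit, replicate block and libraries left out.

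Replicate numbers pair the libraries because the descriptions of same-numbered libraries carry a shared date-like mark. Deviations from dose means correlated at -0.01 to 0.125 (summed) and 0.015 to 0.22 (consensus) within a number, with medians of 0.035 and 0.073, against -0.018 and -0.036 between numbers.

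The 38 genes and all lists were chosen with earlier results of these data known, so no list was tested as a set. Values per library are given for genes past the threshold and for the 2 genes of each role with the smallest unadjusted p at 6 against 0 µM in the summed value; genes at 0 are named, and at most 3 genes are named from each other list, besides those that make up a count of 5 or fewer.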

Additional observations from a re-analysis of the deposited data

How the results depend on the processing

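The files hold FPKM of separate assemblies without reads, so depth in reads is unknown. A gene's summed value rises where it was assembled in pieces, and its consensus exon value falls where consensus positions were left unassembled. With the consensus exon value in place of the summed value, 10 of the 36 genes passed at 6 against 0 µM instead of 0 of 38, the median was -0.69 instead of -0.48, and SLX4 turned from 0.43 to -0.55, ATR from 0.58 to -0.24, PALB2 from 0.45 to -0.04 and BRCA2 from 0.04 to -0.37. At 4 against 0 µM SLX4 turned from 0.48 to -0.25, FANCI from 0.01 to -0.90, FANCM from 0.03 to -0.40, CHEK2 from 0.16 to -0.07 and FANCL from -0.29 to 0.07. The cause was not tested. A pseudocount of 0.1 FPKM moved the median at 6 µM to -0.59.

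Rescaling to TPM moved the median of the summed value to -0.27 at 6 µM and turned it to 0.04 at 4 µM, where FANCD2 turned to 0.12, RAD51D to 0.17 and MRE11 to 0.21. In the consensus exon value it left 0 calls at 6 µM and medians of -0.51 at 6 µM and -0.11 at 4 µM. Over all genes it cut the calls at 6 against 0 µM from 542 to 98, of which 4.08% were lower against 61.6% without it; median centring gave 550 calls, 45.8% of them lower, with 10 repair genes past the threshold. TPM scaling divides replicate 3 of 0 µM by its high FPKM sum.

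Leaving out 1 library gave 0 to 1 calls by the summed value at both 4 and 6 against 0 µM, the 1 being EME1 without replicate 1 of 0 µM, and medians of -0.62 to -0.40 at 6 µM. In the consensus exon value it gave 0 to 14 calls at 6 µM, with 13 to 558 over all genes. At 4 µM the summed differences ran from -0.55 to 0.16 for FANCD2, from -0.23 to 0.45 for FANCI and from -0.48 to 0.20 for MRE11.

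With the replicate block the summed value called 0 repair genes in each comparison and 4 genes in all at 6 against 0 µM, instead of 40. The consensus exon value with the replicate block called 14 repair genes at 6 µM, 9 of them also called without it, and 692 genes in all. The block changed no other call among the 38 genes. Over all genes the summed value called 40 at 6 against 0 µM, 79 with a mean of at least 5 FPKM, 16 with TPM, 20 with only the 2 groups in the fit and 17 to 78 with 1 library left out; at 4 against 0 µM it called 10, 2 with the block and 3 to 29 with 1 library left out.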
